A study of Mus musculus with 32 samples.

Results

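The genes described here are 6 FGF ligands (*Fgf3*, *Fgf4*, *Fgf5*, *Fgf8*, *Fgf10* and *Fgf15*) and the 4 signaling FGF receptors (*Fgfr1*, *Fgfr2*, *Fgfr3* and *Fgfr4*). They were selected by gene symbol, and all 10 were found among the 54233 rows of the deposited table. RNA-seq was performed on KH2 mouse ES (mES) cells of strain C57BL/6, which carry a single copy of a transgene in which a bidirectional TET-responsive element drives GATA6-FLAG and DsRed2 when doxycycline (Dox) is present. GATA6 is the transcription factor that starts the primitive endoderm (PrE) program, and the study asked how its expression turns mES cells, which resemble the epiblast (Epi), into PrE-like cells. There were 8 time points (0, 2, 4, 8, 16, 24, 48 and 96 h) with 4 replicates each, 32 samples in all. Uninduced cells (0 h, no Dox) were kept in 2i medium, which holds LIF, the MEK inhibitor PD0325901 and a GSK3 inhibitor. Every later group was moved to serum medium with LIF and Dox at 1 µg/mL, and Dox was taken away after 12 h, so the 16, 24, 48 and 96 h groups were harvested without it. All groups share the transgene, and all come from 1 cell line. No sample had the change of medium without Dox, so the effects of medium, release of MEK and GATA6 cannot be told apart in any comparison with 0 h. The comparison of 48 h with 2 h sets cells against each other that were both in serum medium. They still differed in the time since the change of medium, in the time since GATA6 induction and in the presence of Dox. The 2 h cells still had Dox and the 48 h cells did not, and these effects cannot be told apart either.

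FGFs are secreted proteins that bind receptor tyrosine kinases together with heparan sulfate and signal through FRS2, GRB2, SOS and RAS to the kinases RAF, MEK and ERK. In the blastocyst, FGF4 made by Epi cells acts on FGFR1 and FGFR2 of neighboring cells, and the resulting ERK activity favors the PrE fate. FGF4 binds mainly the IIIc splice forms of the receptors, whereas FGF3 and FGF10 bind the IIIb forms, and read counts per gene do not separate these forms.

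*Fgf3*, *Fgf4* and *Fgf15* lie next to each other on the plus strand of chromosome 7 (GRCm38). In GENCODE models *Fgf3* spans 144838083 to 144844436, *Fgf4* 144847367 to 144865243 and *Fgf15* 144896531 to 144900953, with gaps of 2930 and 31287 bases between them. The promoter windows of *Fgf3* and *Fgf4* are shown because these neighbors moved in opposite directions. Each window holds 250 bases before and 50 after a RefSeq transcript start (GRCm38.p6), written 5′ to 3′ on the strand of the gene. *Fgf3* (chr7:144838362-144838661, plus strand) has GATA letters in capitals, and *Fgf4* (chr7:144861136-144861435, plus strand) has TATATA letters in capitals. Both windows lie inside the GENCODE spans of their genes, which start further upstream.
Fgf3: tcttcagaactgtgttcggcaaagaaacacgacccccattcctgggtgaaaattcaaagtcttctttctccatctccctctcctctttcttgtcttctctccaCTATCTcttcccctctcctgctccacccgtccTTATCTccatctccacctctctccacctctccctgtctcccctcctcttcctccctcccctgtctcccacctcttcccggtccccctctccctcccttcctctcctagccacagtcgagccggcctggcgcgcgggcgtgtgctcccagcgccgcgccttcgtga
Fgf4: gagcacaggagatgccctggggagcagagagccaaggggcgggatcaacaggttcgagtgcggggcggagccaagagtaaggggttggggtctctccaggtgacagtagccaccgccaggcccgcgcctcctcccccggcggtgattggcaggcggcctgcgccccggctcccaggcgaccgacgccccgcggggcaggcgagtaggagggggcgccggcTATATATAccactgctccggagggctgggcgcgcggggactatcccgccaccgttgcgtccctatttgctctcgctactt
The GATA letters searched on both strands were AGATAA, its variant TGATAA, then AGATAG, and finally its variant TGATAG. Among the 7 genes with a window (*Fgf3*, *Fgf4*, *Fgf5*, *Fgf10*, *Fgfr2*, *Fgfr3* and *Fgfr4*) only *Fgf3* held them, on the minus strand, 147 and 115 bases before its start, and 29.8% of 32851 promoter windows hold at least 1 such match. The 2 TATATA matches of *Fgf4* overlap and begin 30 and 28 bases before its start, and 5.67% of windows hold that motif. These are matches of letters and not measured binding sites.

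Between 3190108 and 12301732 reads per sample fell on genes (median 8870662.5). A normalized count is the number of reads over the sample's size factor, and levels of different genes are compared only after division by exon length. Replicates 1 and 2 of a time point differed from replicates 3 and 4 more than from each other (chi-square per degree of freedom over genes, median 10.3 across the sets against 1.53 within them), and how the sets arose is not stated, so values within each set are given beside the main results. The main fit has no term for the sets and counts the 4 samples of a time point as independent. Where groups are said not to overlap, the share of all genes that did so was not counted. Summed over 8 mES cell markers fixed by name, samples ranged from 36241 to 43144 at 0 h and from 9157 to 10652 at 48 h, and over 8 PrE markers from 570 to 859 and from 84747 to 156610. All 16 passed the filter on low values. Every mES marker had a lower mean at 48 h and every PrE marker a higher one. Most of the mES sum at 48 h was *Pou5f1* (mean 9104 at 0 h and 6166 at 48 h), while *Nanog* went from 5875 to 220. Most of the PrE sum at 48 h was *Lama1* (697 and 56675), *Cubn* (3.93 and 27062) and *Dab2* (12.8 and 21005). The sum over 6 formative epiblast markers ranged from 758 to 1135 at 0 h, from 8158 to 9247 at 24 h and from 2627 to 2777 at 48 h, and its high value at 24 h was carried by *Dnmt3b* (mean 681 at 0 h and 8560 at 24 h), while the means of *Lef1*, *Zic2*, *Sox4*, *Otx2* and *Pou3f1* were not above those of 0 h. Sums over 7 trophoblast markers ranged from 674 to 755 at 0 h and from 441 to 722 at 48 h, with a lower mean for *Tfap2c* (398 and 194) and a higher one for *Krt7* (16.9 and 102), *Hand1* (0.170 and 52.8) and *Gata3* (1.36 and 33.2). Sums over 5 mesoderm markers ranged from 102 to 454 and from 74.4 to 123, with a lower mean for *T* (235 and 0.927) and a higher one for *Kdr* (34.7 and 93.5). Sums over 5 neural markers ranged from 383 to 553 and from 157 to 230, with a lower mean for *Tubb3* (356 and 11.0) and a higher one for *Nes* (70.6 and 171). The highest sum over 6 fibroblast (feeder cell) markers was 11.0 among the 0 h samples and 10.3 among those of 48 h. Other groups reached higher sums, with a maximum of 21.4 in a sample of 8 h. *Thy1* had up to 22 reads in a sample (2 h group) and *Postn* up to 18 (96 h group). *Col1a2* and *Col3a1* had at most 4 and 2 reads in any sample. The part of other cell types in the results was not tested. In bulk samples, fewer cells that express a gene and less RNA of it per cell cannot be told apart.

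*Fgf4* was the main ligand of uninduced cells and fell over the first day. Its normalized counts were 1589, 1523, 2076 and 2057 in replicates 1 to 4 at 0 h, and 869, 879, 639 and 684 at 2 h. They were 365, 421, 264 and 293 at 8 h and 157, 164, 86.5 and 92.3 at 16 h. At 24 h the 4 samples had 88.9, 68.2, 22.3 and 34.2. Every induced sample was below every uninduced sample, and the samples of 4, 8 and 16 h did not overlap one another. The log2 fold change, on the scale of log2(normalized count + 1), was -1.24 ± 0.29 (SE) at 2 h (limma over all genes, Benjamini-Hochberg (BH) adjusted p = 0.00096), -2.44 ± 0.29 at 8 h (limma, BH-adjusted p = 4.1e-08) and -5.24 ± 0.29 at 24 h (limma, BH-adjusted p = 1.1e-15). The decrease at 24 h was -4.30 within replicates 1 and 2 and -6.17 within replicates 3 and 4.

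After 24 h the levels of *Fgf4* stayed low. The samples had 135, 81.0, 58.9 and 70.2 at 48 h and 58.4, 66.3, 50.2 and 56.7 at 96 h, and these overlapped those of 24 h. The step from 48 to 96 h was -0.50 ± 0.29 (limma, BH-adjusted p = 0.15, or 0.050 with the replicate block), -0.74 within replicates 1 and 2 and -0.26 within replicates 3 and 4. The level at 48 h was above that at 24 h by a log2 fold change of 0.80 ± 0.29 (limma, BH-adjusted p = 0.020), which did not pass without replicate 3 of 24 h (0.46, limma, BH-adjusted p = 0.16) or without replicate 1 of 48 h (0.57, limma, BH-adjusted p = 0.11), nor with limma-voom on whole reads (0.68, BH-adjusted p = 0.13). Against 0 h, *Fgf4* was lower by -4.43 ± 0.29 at 48 h (limma, BH-adjusted p = 2.2e-14), and 321 reads remained over the 4 samples of 48 h against 7058 at 0 h. Against 2 h, with serum medium on both sides, the log2 fold change at 48 h was -3.20 ± 0.29 (limma, BH-adjusted p = 3.5e-11).

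*Fgf3*, whose product acts through IIIb receptor forms and is known for its role in inner ear and tail development, went the other way. It had 17.9, 16.3, 11.3 and 22.7 normalized counts at 0 h and 11.4, 6.79, 11.7 and 8.21 at 2 h. These low levels overlapped, and the log2 fold change at 2 h was -0.77 ± 0.20 (limma, BH-adjusted p = 0.0023), a call that limma-voom on whole reads did not give (BH-adjusted p = 0.17). At 8 h the samples had 84.1, 78.6, 61.4 and 56.3, at 16 h 213, 213, 230 and 222, and at 24 h 171, 178, 270 and 260. From 8 h on all samples were above those of 0 h, and between 16 and 24 h replicates 1 and 2 were lower and replicates 3 and 4 higher. The level then rose at both later steps, to 386, 390, 550 and 578 at 48 h and to 1110, 1129, 1014 and 1081 at 96 h. Compared with 0 h, *Fgf3* had a log2 fold change of 2.00 ± 0.20 at 8 h, just below the 4-fold threshold (limma, BH-adjusted p = 1.1e-09), 4.74 ± 0.20 at 48 h (limma, BH-adjusted p = 3.9e-19) and 5.95 ± 0.20 at 96 h (limma, BH-adjusted p = 1.1e-21). The step from 48 to 96 h was 1.21 ± 0.20 (limma, BH-adjusted p = 7.5e-06), 1.53 within replicates 1 and 2 and 0.89 within replicates 3 and 4.

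*Fgf10*, a ligand of the IIIb form of FGFR2 that is required for lung and limb outgrowth, rose early and peaked at 48 h. It had 53.8, 72.7, 71.7 and 47.2 normalized counts at 0 h, 90.4, 100, 163 and 184 after 2 h, and 307, 279, 242 and 263 after 4 h. The 3 groups did not overlap. The level stayed in that range at 8 h (214 to 302) and then passed through 459 to 490 at 16 h and 837 to 872 at 24 h. At 48 h the samples had 1523, 1487, 1517 and 1569, and at 96 h 1140, 1223, 1339 and 1343, all below those of 48 h. The log2 fold change against 0 h was 1.08 ± 0.16 at 2 h (limma, BH-adjusted p = 2.1e-06), with 0.60 within replicates 1 and 2 and 1.56 within replicates 3 and 4. It was 2.15 ± 0.16 at 4 h (limma, BH-adjusted p = 2.8e-12) and 4.63 ± 0.16 at 48 h (limma, BH-adjusted p = 3.4e-21). The difference of 96 h from 48 h was -0.28 ± 0.16 and did not pass (limma, BH-adjusted p = 0.15).

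*Fgf5*, *Fgf8* and *Fgf15* were at the limit of detection throughout and did not pass the filter on low values. FGF5 marks the formative and primed epiblast, FGF8 patterns the early embryo, and FGF15 is a hormone-like FGF that needs a Klotho co-receptor. No sample held more than 4 reads of any of them. *Fgf5* had 3, 4, 1 and 1 reads in replicates 1 to 4 at 0 h and at most 3 in any later sample. *Fgf8* had 0 reads in all samples of 8, 24 and 96 h, and its highest count was 4 reads in replicate 4 of 2 h. *Fgf15* reached 4 reads in 2 samples of 4 h, in 1 of 0 h and in 1 of 8 h, and had 0 in all samples of 24 h. Fitted without the filter, *Fgf15* had a log2 fold change of -1.61 ± 0.42 at 24 h (limma, BH-adjusted p = 0.0032) and *Fgf5* one of -1.27 ± 0.43 (limma, BH-adjusted p = 0.026), both against a 0 h group of 9 reads in all. A count of 0 allows up to 3 reads in a sample, so the size of these differences is not known. *Fgf15* also shares 24.9% of its exon bases with an antisense gene, and the strand setting of the counting is not stated.

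**Figure D1:**
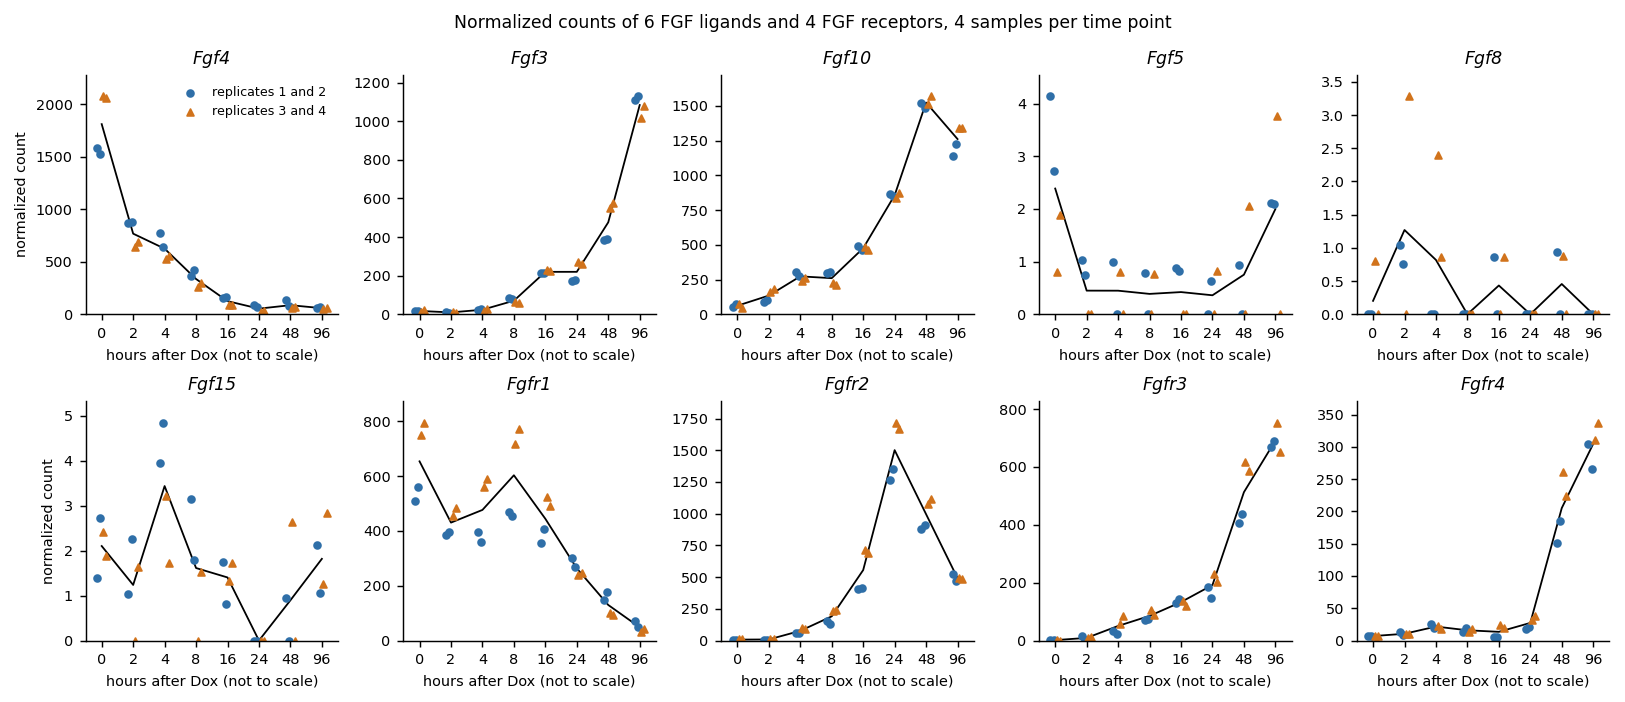
Normalized counts (y axis, linear from 0, own scale in each panel) of the 6 ligands and 4 receptors against hours after Dox (x axis, not to scale). Circles are replicates 1 and 2, triangles are replicates 3 and 4, and the line joins the means. *Fgf4* and *Fgfr1* end low, *Fgfr2* has its highest 4 samples at 24 h, *Fgfr4* leaves its low range at 48 h, and *Fgf5*, *Fgf8* and *Fgf15* stay below 5.

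*Fgfr1*, the receptor through which ES cells mainly sense FGF4, made up most of the receptor RNA at 0 h and had its main decrease from 24 h on. It had 508, 562, 750 and 795 normalized counts at 0 h, 385, 396, 456 and 483 after 2 h, and 470, 454, 717 and 771 after 8 h. The samples of 8 h overlapped those of 0 h, and in both groups replicates 3 and 4 were the higher ones. The level was 300, 268, 238 and 248 at 24 h, 149, 177, 100 and 92.9 after 48 h, and 71.1, 48.4, 31.4 and 42.5 after 96 h. The groups of 24, 48 and 96 h did not overlap one another or any earlier group. At 2 h the log2 fold change was -0.58 ± 0.22 (limma, BH-adjusted p = 0.037), a call that did not hold without replicate 3 of 0 h (-0.51, limma, BH-adjusted p = 0.10) or without replicate 4 of 0 h (-0.48, limma, BH-adjusted p = 0.12), nor on the means of the replicate sets (limma, BH-adjusted p = 0.26). At 8 h it was -0.13 ± 0.22 (limma, BH-adjusted p = 0.67). It reached -2.35 ± 0.22 at 48 h (limma, BH-adjusted p = 1.0e-10), where it was -1.71 within replicates 1 and 2, short of 4-fold, and -2.99 within replicates 3 and 4, and -3.76 ± 0.22 at 96 h (limma, BH-adjusted p = 1.2e-15). Against 2 h the decrease at 48 h was -1.77 ± 0.22 (limma, BH-adjusted p = 3.0e-08), which is also short of 4-fold.

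*Fgfr2*, the receptor enriched in the PrE of blastocysts, rose within 4 h and peaked at 24 h. It had 2.76, 5.44, 11.3 and 9.44 normalized counts at 0 h and 5.19, 2.26, 12.9 and 14 at 2 h. These groups overlapped (log2 fold change 0.11 ± 0.34, limma, BH-adjusted p = 0.84). At 4 h the samples had 61.3, 58.1, 97.0 and 88.4, at 16 h 407, 411, 714 and 690, and at 24 h 1266, 1353, 1718 and 1668. The 4 samples of 24 h were the highest of all 32. They were followed by 876, 910, 1079 and 1119 at 48 h and by 523, 468, 495 and 482 at 96 h. The log2 fold change was 3.34 ± 0.34 at 4 h (limma, BH-adjusted p = 4.1e-09) and 7.64 ± 0.34 at 24 h (limma, BH-adjusted p = 1.0e-17). The step from 2 to 4 h, with serum medium and Dox in both groups, was 3.23 ± 0.34 (limma, BH-adjusted p = 4.8e-08). From 24 to 48 h the log2 fold change was -0.59 ± 0.34 (limma, BH-adjusted p = 0.16, or 0.032 with the replicate block and 0.40 on the means of the replicate sets), and from 48 to 96 h it was -1.01 ± 0.34 (limma, BH-adjusted p = 0.017, or 0.15 on the means of the replicate sets). The gene shares 3.04% of its exon bases on the same strand with *Ctbp2*.

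*Fgfr3* had a higher mean at each later time point, although the steps from 8 to 16 h, 16 to 24 h and 48 to 96 h did not pass (limma, BH-adjusted p = 0.23, 0.32 and 0.29). The samples of these steps did not overlap, which is a description and not a test. With limma-voom on whole reads the steps passed (BH-adjusted p = 0.02, 0.066 and 0.0077), but not on the means of the replicate sets. It had 1, 3, 3 and 0 reads in replicates 1 to 4 at 0 h and 14, 4, 7 and 13 reads at 2 h. The normalized counts were 34.6, 24.2, 56.9 and 85.8 at 4 h, 185, 148, 232 and 203 after 24 h, 407, 439, 618 and 587 after 48 h, and 670, 689, 753 and 652 after 96 h. All samples from 2 h on were above those of 0 h. Since 0 h held 7 reads in all, its fold changes are given as ratios of summed counts with exact 95% intervals for counting error. The ratio was 4.94 (2.18 to 13.1) at 2 h, 31.8 (15.2 to 80.2) at 4 h, 103 (49.7 to 257) at 24 h and 297 (144 to 739) at 48 h. The fitted log2 fold change at 2 h, 2.02 ± 0.34 (limma, BH-adjusted p = 2.2e-05), depends on the pseudocount and lies at the threshold, and the gene was not called with a pseudocount of 5 (1.07), without replicate 4 of 0 h (1.64) or without replicate 1 (1.76) or 4 (1.90) of 2 h. Against the better-measured 2 h group, the log2 fold change at 48 h was 5.80 ± 0.34 (limma, BH-adjusted p = 2.5e-15). An opposite-strand model covers 13.9% of its exon bases.

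*Fgfr4*, which with KLB forms the receptor of endocrine FGFs in liver, had its main rise last, between 24 and 48 h. It had 6.90, 6.79, 6.45 and 7.55 normalized counts at 0 h and 25.7, 19.4, 23.3 and 18.2 at 4 h. All samples of 4 h were above those of 0 h (log2 fold change 1.50 ± 0.31, limma, BH-adjusted p = 0.00021). At 16 h the sets parted, with 6.09 and 4.89 in replicates 1 and 2 and 24.0 and 19.0 in replicates 3 and 4. The log2 fold change at 16 h was 0.60 ± 0.31 (limma, BH-adjusted p = 0.11, or 0.073 with the replicate block), -0.28 within the first set and 1.48 within the second. The samples had 18, 21.3, 32.5 and 37.5 at 24 h, 151, 185, 261 and 224 after 48 h, and 305, 265, 311 and 338 after 96 h. The step from 24 to 48 h was 2.89 ± 0.31 (limma, BH-adjusted p = 5.3e-09) and was seen in both sets (3.03 and 2.76). From 48 to 96 h the log2 fold change was 0.59 ± 0.31 (limma, BH-adjusted p = 0.11, or 0.076 with the replicate block).

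A gene was called when it passed FDR < 0.1 and a 4-fold change, the rule of the study's methods, and 15227 genes were tested. At 2 h, 1 of the 7 genes tested (*Fgfr3*) was called higher and 0 lower, where 2.00% of all genes were called higher and 0.348% lower. At 4 h these were 3 and 0 (background 2.69% and 0.709%), at 8 h 3 and 1 (3.40% and 1.31%), at 16 h 4 and 1 (4.03% and 2.40%) and at 24 h 4 and 1 (4.85% and 4.34%). At 48 h 5 were called higher and 2 lower, against 8.48% and 7.09% of all genes, and at 96 h again 5 and 2, against 9.28% and 10.3%. All 7 genes tested were thus called at both late time points, with *Fgf4* and *Fgfr1* as those called lower. These counts cover only the members that passed the filter, which 3 of the 10 did not.

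At FDR < 0.1 alone, 2 of these 7 were higher and 3 lower at 2 h, where the background was 22.2% and 22.6%, and 5 and 2 at 48 h, where it was 36.1% and 37.3%. The 2 h groups hold *Fgf10* and *Fgfr3* as higher and *Fgf4*, *Fgf3* and *Fgfr1* as lower. From 2 h to 48 h, 5 were called higher and 1 (*Fgf4*) lower by the 4-fold rule (background 8.50% and 7.65%). Between successive time points, the 4-fold calls in either direction were *Fgfr2* and *Fgfr3* from 2 to 4 h (background 0.788%) and *Fgfr4* from 24 to 48 h (3.91%). There were none from 4 to 8 h (0.814%), 8 to 16 h (1.04%), 16 to 24 h (1.25%) and 48 to 96 h (3.70%). At FDR < 0.1 alone, 4 of the 7 were called from 4 to 8 h (background 17.1%), with *Fgf4* lower and *Fgf3*, *Fgfr2* and *Fgfr3* higher. The *Fgfr3* call (0.89 ± 0.34, limma, BH-adjusted p = 0.092) was lost with no filter, with a pseudocount of 0.5, with only these time points fitted (limma, BH-adjusted p = 0.16 in each) and in replicates 3 and 4 alone (0.45, limma, BH-adjusted p = 0.36). Leaving out replicate 1 or 2 of 4 h, or any 1 replicate of 8 h, also lost it (0.60 to 0.96, limma, BH-adjusted p between 0.11 and 0.34). From 8 to 16 h 4 were called (background 20.0%), *Fgf4* lower and *Fgf3*, *Fgf10* and *Fgfr2* higher. From 16 to 24 h 5 were called (background 28.2%), *Fgf4* and *Fgfr1* lower and *Fgf10*, *Fgfr2* and *Fgfr4* higher. From 48 to 96 h 3 were called (background 54.5%), *Fgfr1* and *Fgfr2* lower and *Fgf3* higher. The means of the replicate sets leave 8 residual degrees of freedom. There the calls at FDR < 0.1 alone from 4 to 24 h and from 48 to 96 h were lost for *Fgf4*, *Fgfr2*, *Fgfr3* and *Fgfr4*. That for *Fgfr1* from 16 to 24 h was lost as well (limma, BH-adjusted p between 0.10 and 0.42 for these). The 4-fold calls from 2 to 4 h and from 24 to 48 h stayed at FDR < 0.1 on these means.

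**Figure D2:**
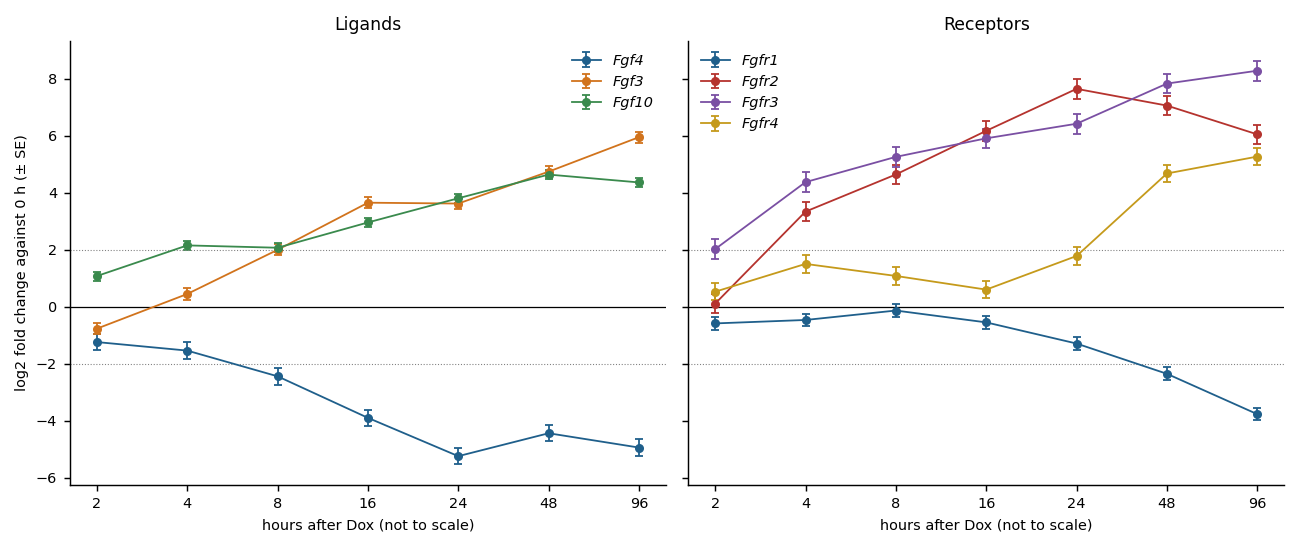
Log2 fold change against 0 h (y axis, ± SE of the limma fit) of the 3 ligands and 4 receptors tested, by hours after Dox (x axis, not to scale), with dotted lines at the 4-fold threshold. *Fgf4* reaches -5.24 at 24 h, *Fgfr2* 7.64 at 24 h, and *Fgfr4* moves from 1.78 at 24 h to 4.67 at 48 h.

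To compare genes with each other, normalized counts were divided by the exon length of the gene, and each gene is given as its share of the ligand or receptor sum. *Fgf4* made up 96.1% ± 0.813 (SD, n = 4) of the summed ligand level at 0 h, 54.5% ± 2.35 after 8 h and 4.86% ± 2.1 after 48 h. *Fgf10* made up 2.32% ± 0.658 at 0 h, 62.7% ± 2.95 after 24 h, 58.9% ± 3.48 after 48 h and 36.1% ± 2.72 after 96 h. *Fgf3* made up 1.27% ± 0.366 at 0 h, 36.0% ± 5.17 after 48 h and 61.3% ± 2.54 after 96 h. The leading ligand thus passed from *Fgf4* to *Fgf10* and then to *Fgf3*, and at 16 h the samples of *Fgf10* (41.4 to 45.6%) and *Fgf3* (36.9 to 42.6%) overlapped. The summed ligand level was 589 ± 91.8 normalized counts per kb at 0 h, 192 ± 37.1 after 8 h, 564 ± 43.4 after 48 h and 759 ± 16.9 after 96 h. Samples of 0 h (502 to 672) and 48 h (516 to 612) overlapped in this sum.

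Among the receptors, *Fgfr1* made up 95.8% ± 0.421 of the summed level at 0 h, 63.3% ± 1.92 after 8 h, 37.4% ± 2.11 after 16 h and 5.75% ± 2.46 after 48 h. *Fgfr2* went from 0.963% ± 0.372 at 0 h to 43.8% ± 4.40 after 16 h and 70.2% ± 2.40 after 24 h, then to 40.5% ± 1.90 after 48 h. At 48 h *Fgfr3* followed with 29.8% ± 1.79 and *Fgfr4* with 24.0% ± 2.25, and the 3 did not overlap. At 96 h *Fgfr3* held 41.1% ± 2.58 and *Fgfr4* 36.5% ± 2.63, with overlapping samples, and *Fgfr2* 20.3% ± 0.814. When the longest transcript was taken as the length, *Fgfr2* was at 52.0% at 48 h, and *Fgfr4* was at 24.4% and *Fgfr2* at 29.6% at 96 h, so the order of these receptors at 96 h depends on the length used. With no division by length *Fgf10* (52.4%) was above *Fgf3* (45.1%) at 96 h. The summed receptor level was 69.1 ± 14.5 normalized counts per kb at 0 h, 48.6 ± 5.31 after 2 h, 207 ± 25.7 after 24 h, 239 ± 35.6 after 48 h and 235 ± 9.72 after 96 h. Shares carry no p, since the sums are over genes chosen with earlier results known.

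**Figure D3:**
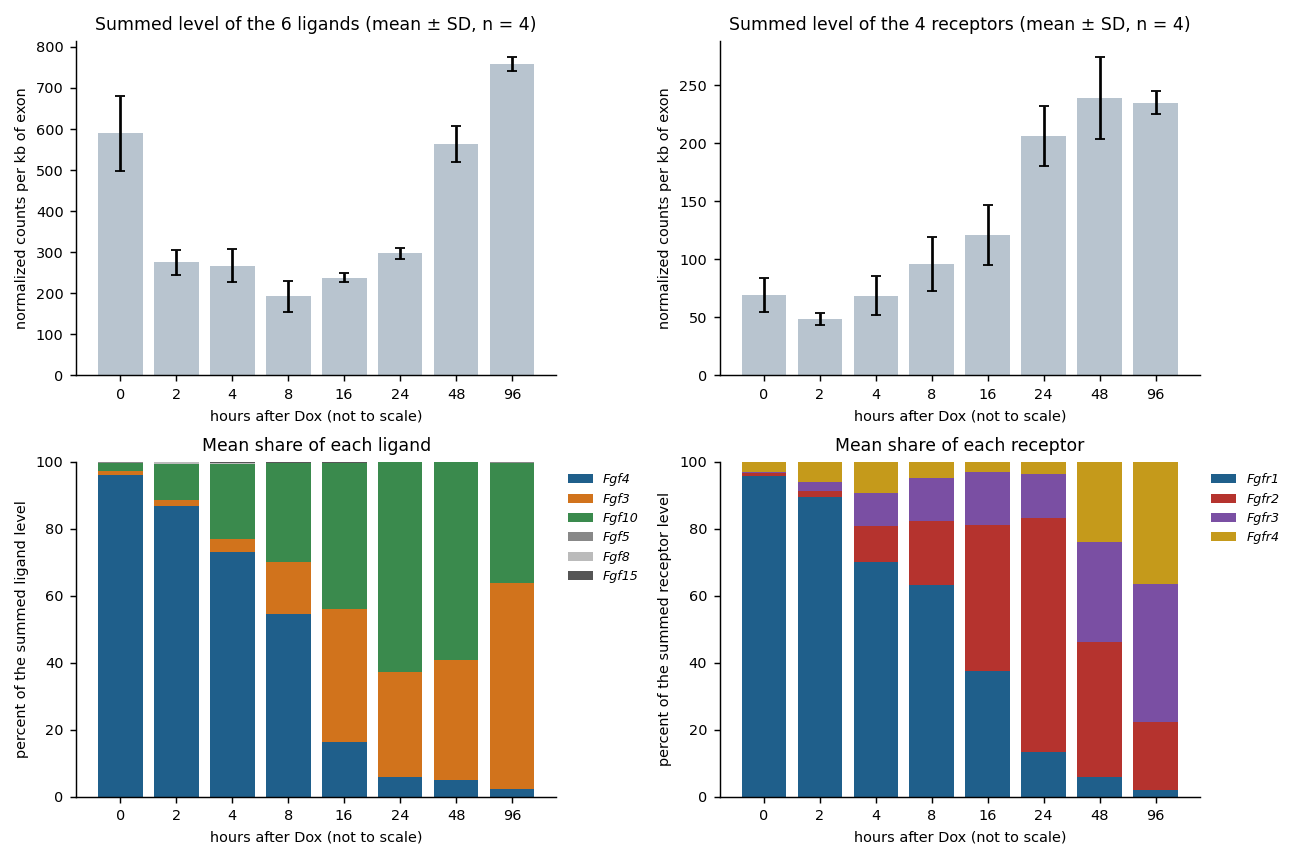
Top, summed ligand and receptor levels in normalized counts per kb of exon (y axis, bars are means ± SD, n = 4) by hours after Dox (x axis, not to scale). Bottom, mean share of each gene in percent of that sum. *Fgf4* takes 96.1% of the ligand level at 0 h but 4.86% at 48 h, while *Fgfr1* takes 95.8% of the receptor level at 0 h but 5.75% at 48 h.

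The genes around the *Fgf3*, *Fgf4* and *Fgf15* cluster were listed by position, with no use of their values, and 10 genes within 500 kb passed the filter. Next to the opposite changes of *Fgf3* and *Fgf4* at 48 h, *Ccnd1*, the gene of the G1 cyclin D1, was lower by -4.91 ± 0.13 (limma, BH-adjusted p = 1.1e-23) and the chloride channel gene *Ano1* by -3.32 ± 0.49 (limma, BH-adjusted p = 7e-07). The other 6 genes had log2 fold changes between -1.69 (*Bc1*) and 1.30 (*Cttn*), so *Fgf3* was the only tested gene of the region with a 4-fold increase.

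Of 16 other FGF ligand genes, 4 passed the filter. At 48 h against 0 h, 0 were called higher and 1 lower by the 4-fold rule (background 8.48% and 7.09%). This was *Fgf17*, a close relative of *Fgf8*, with 45.1 normalized counts on average at 0 h but 4.30 at 48 h (log2 fold change -3.06, limma, BH-adjusted p = 0.00011). At FDR < 0.1 alone, 2 of the 4 were lower at 48 h (background 37.3%). The second was *Fgf11*, named after its values were seen, with 48.5 and 25.9 (-1.03, limma, BH-adjusted p = 0.0042).

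Of 8 co-receptor, decoy and binding protein genes, 6 passed the filter. At 48 h against 0 h, 2 were called higher and 0 lower (background 8.48% and 7.09%). *Klb*, the co-receptor that lets FGFR4 and FGFR1 bind endocrine FGFs, went from 20.1 ± 5.76 normalized counts at 0 h to 1408 ± 203 at 48 h (log2 fold change 6.08 ± 0.29, limma, BH-adjusted p = 9.1e-18). *Flrt3*, a membrane protein that binds FGF receptors, went from 128 to 3480 (4.76, limma, BH-adjusted p = 1.1e-22). At 2 h, *Kl* and *Fgfbp1* were the 2 called higher (background 2.00%), named here after their values were seen. Both were called lower from 2 to 48 h (background 7.65%). Of the tested 6, 2 were higher and 2 lower at FDR < 0.1 at 48 h (background 36.1% and 37.3%). The median log2 fold change of the list was -0.13, against -0.02 over all genes.

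Heparan sulfate genes, which make or carry the sugar chains that FGFs need for binding, moved individually. Of 26 listed, 22 passed the filter. At 48 h against 0 h, 5 were called higher and 1 lower (background 8.48% and 7.09%). At FDR < 0.1 alone these were 10 and 6 (background 36.1% and 37.3%), with a list median of 0.18. The 5 called higher by the 4-fold rule were *Hs3st1*, *Hpse*, *Gpc3*, *Sdc3* and *Sdc4*. The sulfotransferase gene *Hs3st1* went from 1.69 to 1358 normalized counts on average and the heparanase gene *Hpse* from 8.18 to 391. The glypican gene *Gpc3* went from 134 to 2292 and the syndecan genes *Sdc3* and *Sdc4* from 30.3 to 339 and from 577 to 2987, while *Sdc1* went from 309 to 62.4. At 2 h against 0 h none was called by the 4-fold rule in limma (background 2.00% higher and 0.348% lower). At FDR < 0.1, 4 were higher and 5 lower (background 22.2% and 22.6%).

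All 21 adaptors and core kinases passed the filter. By the 4-fold rule 0 were called in either direction at 2 h (background 2.00% higher and 0.348% lower). At FDR < 0.1 in limma, 8 were higher and 6 lower there (background 22.2% and 22.6%). At 48 h, 3 were called higher and 0 lower (background 8.48% and 7.09%). At FDR < 0.1 these were 10 and 6 (background 36.1% and 37.3%), with a list median of 0.20. *Frs2*, the adaptor that docks on FGF receptors, went from 427 to 1723 normalized counts (log2 fold change 2.01, limma, BH-adjusted p = 1.2e-21). *Mapk3*, the gene of ERK1, went from 344 to 1616 (2.24, limma, BH-adjusted p = 1.9e-20), and the adaptor gene *Gab2* from 5.25 to 37.4 (2.44, limma, BH-adjusted p = 0.00041).

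Genes induced or fed back on by ERK, 25 in all and all tested, showed the largest list median at 2 h. By then the MEK and GSK3 inhibitors had been removed and serum and Dox added, and the effects of these changes cannot be told apart. At 2 h against 0 h, 11 were called higher and 0 lower (background 2.00% and 0.348%). At FDR < 0.1 these were 17 and 2 (background 22.2% and 22.6%). The median log2 fold change was 1.77 against -0.03 over all genes. The immediate early genes *Egr3* and *Fosl1* went from 0.202 to 420 and from 3.18 to 222 normalized counts and *Egr2* from 0.515 to 46.5. At the lower end of these 11 were *Dusp6*, an ERK phosphatase gene (2.93, limma, BH-adjusted p = 6.4e-06), *Myc* (2.24, limma, BH-adjusted p = 1.5e-06) and the RAS-ERK inhibitor gene *Spred3* (2.15, limma, BH-adjusted p = 1.6e-11). At 48 h against 0 h, 2 were called higher and 3 lower (background 8.48% and 7.09%). At FDR < 0.1 these were 7 and 14 (background 36.1% and 37.3%), with a list median of -0.63. *Dusp4* went from 15.0 to 431 and *Spry3* from 0.202 to 150, while the ETS factor genes *Etv1*, *Etv4* and *Etv5*, known FGF targets, went from 142 to 17.4, from 955 to 135 and from 2075 to 289. From 2 to 48 h, 18 of the 25 were called lower and 1 (*Spry3*) higher (background 7.65% and 8.50%), with a median of -2.51 against -0.03 over all genes. This stood beside a summed receptor level that went from 48.6 to 239 per kb over the same interval, and no measure of ERK activity was analysed here.

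**Figure D4:**
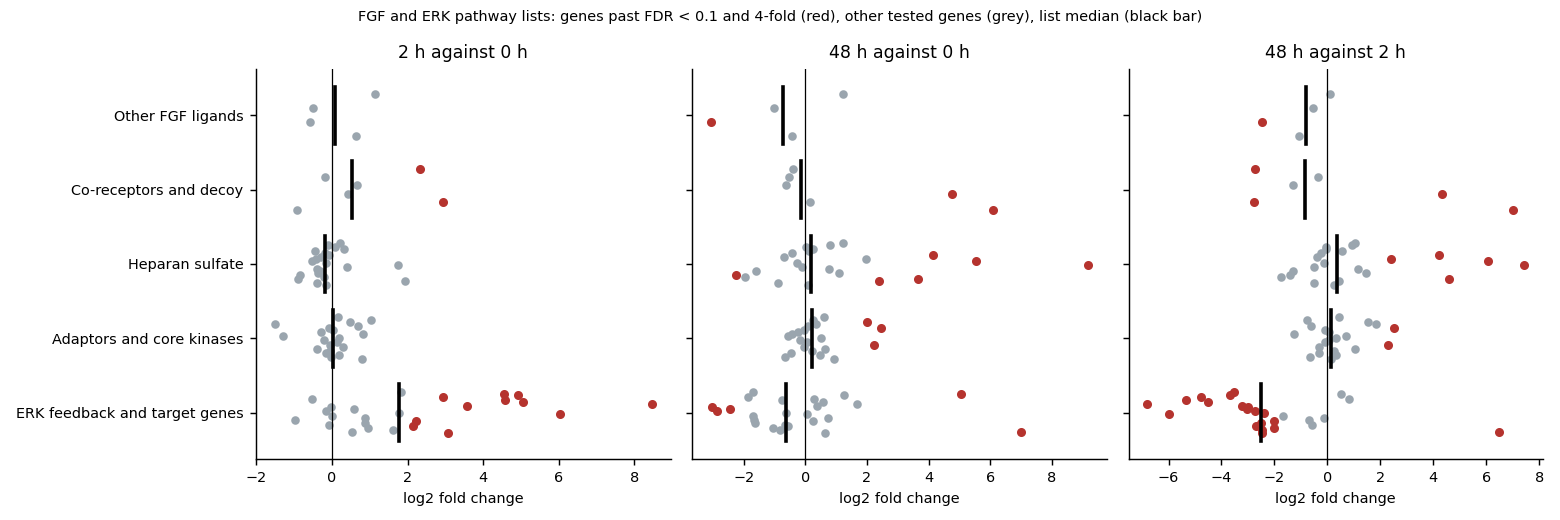
Log2 fold change (x axis) of each tested gene in 5 lists of FGF and ERK pathway genes (rows) for 3 comparisons. Red points passed FDR < 0.1 and 4-fold, grey points did not, and the black bar is the list median, which for ERK feedback and target genes is 1.77 at 2 h and -2.51 from 2 to 48 h.

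The time courses of the members were also set beside all other genes, by the Pearson correlation of the 8 time point means of log2(normalized count + 1) with 9957 tested genes that have a symbol in the deposited table and a mean of at least 100 somewhere. These are descriptions over 8 points that share the same libraries. The correlation compares the shape of a time course and not the size of the change. The 3 genes most like *Fgf4* were *Psme2b* (r = 0.990), *Gm8909* (0.989) and *Igfbp2* (0.989), the last an IGF-binding protein gene. Among the genes most like *Fgfr1* were *Arhgap30* (0.991) and *Sult6b1* (0.990). For *Fgf3* they were *Dis3l* (0.997), *Map3k5* (0.993) and *Kdelr3* (0.993), and for *Fgf10* *Tmem263* (0.996), *Gna12* (0.991) and *Zfp512b* (0.989). *Fgfr2*, with its peak at 24 h, was closest to *Oma1* (0.989), *Spop* (0.985) and the imprinted noncoding gene *H19* (0.985). Time point means ranged from 130 to 249 for *Oma1*, 403 to 906 for *Spop* and 0.472 to 795 for *H19*, against 7.23 to 1501 for *Fgfr2*. *Fgfr3* was most like *Rin3* (0.998), *Gcnt1* (0.996) and the Polycomb gene *Bmi1* (0.994), and *Fgfr4* most like *Arpc3* (0.990), *Gadd45b* (0.990) and *Kidins220* (0.989). Among the members themselves, the highest r was between *Fgf10* and *Fgfr3* (0.975) and the lowest between *Fgfr1* and *Fgfr4* (-0.949).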

How the data were processed

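RNA-seq was measured in 32 samples, 4 replicates at each of 8 time points. Cutadapt 2.7 (trimming), HISAT2 2.1.0 (alignment, GRCm38.p6) and featureCounts of Subread 1.6.4 (counting) were used by the authors. The authors deposited 1 table of variance-stabilized values on a log2 scale, made with DESeq2. Inverting that transformation returned normalized counts, and 100% of all values came out as whole reads (tolerance 1e-06). Normalized counts were tested as log2(value + 1) with limma 3.58.1 (R 4.3.3; lmFit, contrasts, eBayes with trend, all 32 samples) for the 15227 genes with at least 10 in at least 4 samples, with Benjamini-Hochberg adjustment per comparison. The pseudocount shrinks the fold changes of low genes. Alternatives included limma-voom on those reads. The procedure was tested on simulated counts with the same dispersion for all genes and no difference between the replicate sets. That test therefore does not show how the fit behaves with the sets present in these data.

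Counting intervals are 95%, exact, and cover counting error only. The members and lists were chosen with earlier results of these data known. The named genes are all members, in each pathway list the genes called at 48 h (and 2 h for the ERK list) or the 3 highest and 3 lowest where over 6 were called, and the 3 genes most like each member, of which 1 is not reported here. Gene models are GENCODE M21 and promoters RefSeq.

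The titles give the replicate numbers. Samples of one number of 0 h and of 2 to 24 h deviated together from their group means (every correlation at least 0.15). The correlations were weaker at 48 h (0.069 to 0.124) and absent at 96 h (-0.043 to 0.012). The other number of the same set correlated as well. The reporting summary of the study states that replicate experiments were independent.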

Additional observations from a re-analysis of the deposited data

How the results depend on the processing

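All log2 fold changes of the 7 tested members at 24, 48 and 96 h against 0 h kept their direction and stayed at FDR < 0.1 under every alternative fitted. Scaling to total reads moved the median of all genes by -0.10 at 2 h, -0.13 at 48 h and -0.26 at 96 h against 0 h, and reversed no member. With the replicate block, the counts of members called were as reported, and 4 further fold changes passed: *Fgfr4* from 0 to 16 h (0.073) and from 48 to 96 h (0.076), *Fgfr2* from 24 to 48 h (0.032) and *Fgf4* from 48 to 96 h (0.050; limma, BH-adjusted p). None of the 4 passed on the means of the replicate sets, where 18 fold changes that had passed were lost, all of them comparisons of 2 to 16 h with 0 h, of 24 h with 2 h, or of successive time points.

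The call of *Fgfr3* at 2 h rests on few reads. The count of members called higher there was 0 on the deposited values, with a pseudocount of 5, with scaling to total reads, with limma-voom and in replicates 1 and 2 alone, and between 0 and 1 when 1 sample was left out (0 without replicate 4 of 0 h and without replicates 1 or 4 of 2 h). With a threshold of 2-fold it was 2, and 5 were called higher at 8 h, 1 lower at 2 and 4 h, and 2 lower at 24 h. The fits within each set of replicates were chosen after seeing the data. In replicates 1 and 2 alone 0 members were called lower at 8 h and 1 at 48 h.

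Shares moved with the length used. With no division by length *Fgf10* was at 73.1% of ligands and *Fgfr2* at 54.1% of receptors at 48 h, and *Fgfr1* at 97.7% at 0 h. With the longest transcript *Fgfr2* was at 52.0% and *Fgfr1* at 97.0%.

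No reversed difference had passed the test. *Fgfr2* at 2 h was -0.13 in replicates 1 and 2 alone and ranged from -0.22 to 0.54 when 1 sample was left out. In replicates 1 and 2 alone *Fgfr4* at 16 h was -0.28, *Fgfr1* from 2 to 4 h was -0.052 and *Fgf10* from 4 to 8 h was 0.033. *Fgfr4* from 8 to 16 h was -1.38 in replicates 1 and 2 alone (limma, BH-adjusted p = 0.0016) but 0.42 in replicates 3 and 4 alone, where *Fgf3* from 16 to 24 h was 0.23. Leaving out 1 sample gave -0.16 to 0.0055 for *Fgf10* from 4 to 8 h and -0.14 to 0.080 for *Fgf3* from 16 to 24 h. The cause of these changes was not tested.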
